A study of Mus musculus with 20 samples.

Results

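The genes Mrpl and Mrps encode the proteins of the mitochondrial ribosome, and their transcripts were followed in the blood of tumour-bearing mice over 5 days of bleeding. The members were the array probes whose gene name starts with Mrpl or Mrps followed by a number and with a Cy5 signal that the scanner marked as well above background on 4 or more of the 20 arrays. This left 112 probes of 75 genes, out of 126 probes with such a name and 41174 probes in all. The 75 genes lie on 17 chromosomes, and every name was found in the RefSeq gene table. All 112 members were among the 20957 probes kept for the statistical fit, and 92 of them were well above background on all 20 arrays. Just inside the limit stood a probe of Mrpl45 on 4 arrays and one of Mrps9 on 6, and just outside it a probe of Mrps15 on 3 arrays and one of Mrpl27 on 2.

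Whole blood was taken from 4 female C57Bl/6 mice, numbered 305, 310, 315 and 320, before tumour cells were given (day 0) and on days 10, 15, 20 and 25 after subcutaneous inoculation of Hepa1-6, an established mouse hepatoma line. Each bleed was hybridised to its own 2-colour Agilent array, in Cy5, together with a Cy3-labelled reference that was the same throughout, blood RNA of untreated female C57Bl/6 mice. Values are log2(Cy5/Cy3) after normalization within each array. A value of 0 means the ratio typical of probes of like brightness on that array. A value above 0 means a higher ratio of mouse to reference than that. Each day had a slide of its own, and day and slide cannot be told apart; mice without a tumour on the later days were not analysed here, so that time, repeated bleeding and tumour cannot be told apart either. Age is not given in the labels. The brightest of all 20957 probes was one of Hbb-b1, a globin of red cells, and 9 of 10 erythroid and 9 of 10 neutrophil marker genes were among the probes kept. In whole blood, fewer cells of a type and less RNA per cell cannot be told apart.

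The mitochondrial ribosome translates the few messenger RNAs made inside mitochondria, which code for core subunits of the respiratory chain and of ATP synthase. Its RNA comes from the mitochondrial genome, whereas all its proteins are encoded in the nucleus, made in the cytosol and imported. The large subunit joins amino acids and holds the exit tunnel, and the small subunit holds the messenger RNA and decodes it. Some of the proteins have counterparts in the bacterial ribosome and others are found only in mitochondria. Among blood cells, mature red cells lose their mitochondria and neutrophils carry few, whereas lymphocytes and monocytes keep them.

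Transcription of many nuclear genes for mitochondrial proteins is known to involve ETS-family factors such as GABP, and NRF1. The stretches of 150 bases before the transcription start are shown for the 5 genes with the smallest p over the 5 days (Mrpl33, Mrpl51, Mrpl23, Mrpl3 and Mrpl43) and for Mrpl32, the member that fell most from day 10 to day 25. They were taken from RefSeq on GRCm38.p6 and run 5′ to 3′ on the strand of the gene, with capitals marking CCGGAAG, a core of ETS sites, or the NRF1 motif, which is GCGCA and GCGC parted by any 1 base, on either strand.
Mrpl33: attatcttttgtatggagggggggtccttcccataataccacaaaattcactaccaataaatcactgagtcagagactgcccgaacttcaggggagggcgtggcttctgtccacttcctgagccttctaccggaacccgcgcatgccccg
Mrpl51: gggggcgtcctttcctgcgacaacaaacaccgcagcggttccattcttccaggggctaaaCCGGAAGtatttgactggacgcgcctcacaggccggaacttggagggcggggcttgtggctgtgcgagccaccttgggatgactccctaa
Mrpl23: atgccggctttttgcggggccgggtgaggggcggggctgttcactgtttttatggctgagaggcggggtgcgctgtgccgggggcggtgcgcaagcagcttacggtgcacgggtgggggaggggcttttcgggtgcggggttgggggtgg
Mrpl3: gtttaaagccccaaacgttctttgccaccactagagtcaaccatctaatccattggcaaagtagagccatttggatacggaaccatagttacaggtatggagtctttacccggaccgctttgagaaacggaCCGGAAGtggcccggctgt
Mrpl43: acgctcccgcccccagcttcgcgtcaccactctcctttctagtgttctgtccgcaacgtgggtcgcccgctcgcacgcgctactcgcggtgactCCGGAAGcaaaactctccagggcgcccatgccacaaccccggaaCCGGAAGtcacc
Mrpl32: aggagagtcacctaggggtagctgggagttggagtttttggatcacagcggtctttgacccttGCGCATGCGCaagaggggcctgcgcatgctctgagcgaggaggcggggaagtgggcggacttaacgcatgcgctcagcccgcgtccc
These windows are chr5:31613801-31613950 (plus strand) for Mrpl33, chr6:125192050-125192199 (plus strand) for Mrpl51 and chr7:142532882-142533031 (plus strand) for Mrpl23. The others are chr9:105053118-105053267 (plus strand) for Mrpl3, chr19:45006443-45006592 (minus strand) for Mrpl43 and chr13:14613038-14613187 (minus strand) for Mrpl32. The ETS core stood 90 bases before the start in Mrpl51, 19 in Mrpl3, and 56 and 12 in Mrpl43, counted from the first base of the match. The palindromic NRF1 motif stood 87 bases before the start of Mrpl32. Neither set of letters was found in the windows of Mrpl33 and Mrpl23. Over the 66 member genes with a window in the table, 12 held the ETS core (18.2%, against 5.69% of 27025 mouse genes), 9 held the NRF1 motif (13.6% against 3.23%) and 21 held at least one of them (31.8% against 8.61%). No member gene held both, so that the matches do not overlap, and a match describes the letters only.

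The median of the members was lower on day 10 than on day 0 and higher on day 25 than on day 10. The array medians of days 0 and 10 overlapped slightly, whereas those of days 10 and 25 did not. A change was called where limma gave an adjusted p below 0.05, with Benjamini-Hochberg adjustment over all 20957 probes. On day 10, 16 members had fallen and none had risen, which is 14.3% of the members lower, beside 7.11% of all probes lower and 4.07% higher. On day 15, 8 members had fallen and none had risen (7.14%, beside 3.82% of all probes lower and 2.02% higher). On day 20 only Mrpl33 of the 112 was called, and it was lower (0.893% of the members, beside 1.97% of all probes lower and 0.907% higher). On day 25 no member differed from day 0 by this test, in a comparison in which 0.148% of all probes were called. Between day 10 and day 25, 50 members of 40 genes rose and 3 members of 2 genes fell. These are 44.6% and 2.68% of the members, beside 17.7% of all probes higher and 13.7% lower. The F test over the 5 days called 33 members (29.5%), beside 26.9% of all probes, so that the share called by this test was near that of the array.

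The median change of the 112 members was -0.09 on day 10 (-0.02 over all probes), -0.05 on day 15 (-0.01), -0.04 on day 20 (-0.02) and 0.05 on day 25 (0.00), all against day 0. From day 10 to day 25 it was 0.14, against 0.03 over all probes. In this fit the shifts were small, and no change of a member reached 1 on the log2 scale. The size of a change depended on the processing. Over the other settings and the fits without 1 array, the day 10 change of Mrpl33 ran from -2.27 to -0.67. The change of Mrps16 from day 10 to day 25 ran from 0.56 to 1.94. All 8 members that fell by day 15 were among the 16 that fell by day 10, and all 16 were among the 50 that rose from day 10 to day 25. These comparisons share the arrays of day 0 or of day 10, so that the overlaps are not independent.

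The median of the members on each array showed which bleeds carried these shifts. On day 0 it was 0.11, 0.01, 0.02 and -0.01 in mice 305, 310, 315 and 320, and on day 10 it was -0.06, -0.01, -0.08 and -0.07. On day 25 the medians were 0.18, 0.01, 0.09 and 0.09. Mouse 305 was highest on days 0 and 25, and mouse 310 moved least between days 10 and 25. On days 15 and 20 all 8 medians lay between -0.03 and 0.01.

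**Figure D1:**
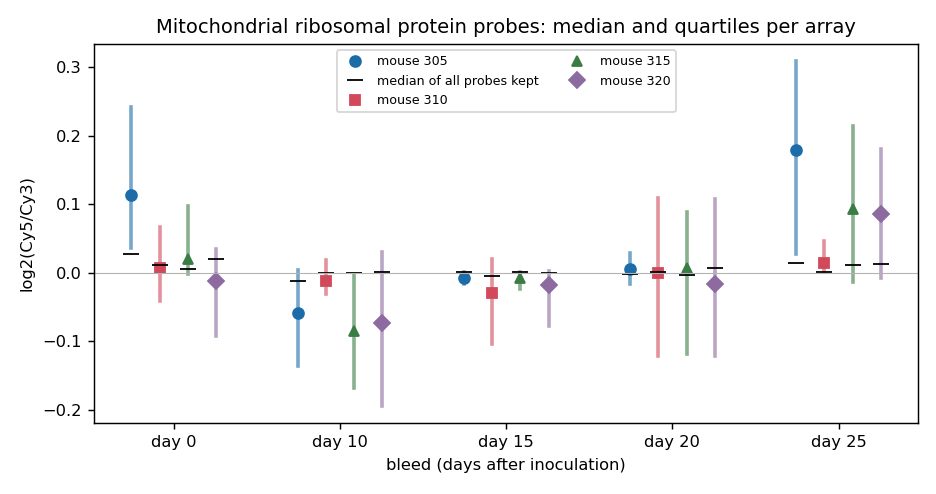
Median (marker) and quartiles (vertical line) of log2(Cy5/Cy3) over the 112 member probes on each of the 20 arrays, by day of bleed and mouse; black dashes are the median of all 20957 probes kept. The day 10 medians, from -0.08 to -0.01, lie below the day 25 medians, from 0.01 to 0.18.

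The arrays of day 10 and day 25 were fully separate for many members. For 40 members (35.7%, beside 13.9% of all probes) all values of day 25 lay above all of day 10, and for 3 (2.68%, beside 11.6%) all lay below. Against day 0, 15 members (13.4%, beside 12%) lay fully lower on day 10 and 21 (18.8%, beside 14.0%) on day 15, and none lay fully higher on either day (beside 7.68% and 7.71% of all probes). The share fully below day 0 on day 10 was near that of the whole array.

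**Figure D2:**
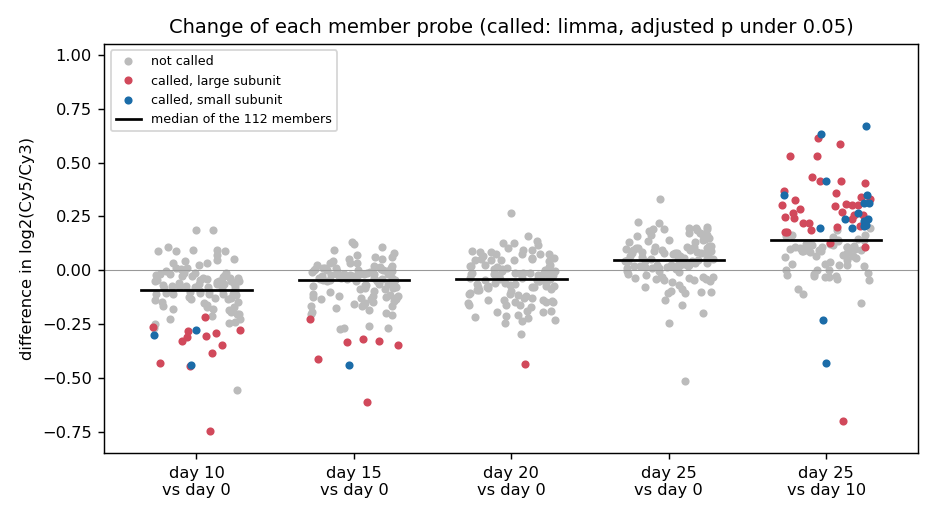
Change of each of the 112 member probes in the 5 comparisons (y axis, difference in log2(Cy5/Cy3); points spread sideways at random for visibility). Coloured points were called, with subunits by gene name; black bars are the medians, from -0.09 on day 10 against day 0 to 0.14 on day 25 against day 10.

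By gene name, 13 of 67 probes of the large subunit and 3 of 45 of the small subunit fell by day 10, beside 7.11% of all probes. The count of the small subunit was thus no higher than the share of the whole array. From day 10 to day 25, 35 large subunit probes of 27 of 46 genes rose and 1 fell, and 15 small subunit probes of 13 of 29 genes rose and 2 fell, beside 17.7% of all probes higher and 13.7% lower. The median change in that comparison was 0.18 for the large and 0.11 for the small subunit, and the difference between the subunits was not tested. Mrps18a and Mrps30 are counted here with the small subunit by their names, although structures place both proteins in the large subunit. Among proteins with a bacterial counterpart, 19 of 36 large subunit probes and 7 of 27 small subunit probes rose. Among the other proteins it was 16 of 31 and 8 of 18. The 18 include both probes of Mrps36, neither of which was called.

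The remaining large subunit genes that rose from day 10 to day 25 without being described below were Mrpl11, Mrpl12, Mrpl13, Mrpl15, Mrpl16, Mrpl22, Mrpl24, Mrpl27, Mrpl35, Mrpl36, Mrpl39, Mrpl41, Mrpl47, Mrpl50 and Mrpl55. Those of the small subunit were Mrps15, Mrps24, Mrps25, Mrps26, Mrps28, Mrps30, Mrps31 and Mrps33. Of these, Mrpl36 (-0.29, adjusted p = 0.0312), Mrpl41 (-0.33, adjusted p = 0.0409) and Mrps28 (-0.30, adjusted p = 0.0374) had also fallen by day 10. One of the probes that rose, of Mrpl50, had at least 1 day without a single array well above background. For 33 genes with 46 probes no probe was called in any comparison: Mrpl1, Mrpl2, Mrpl4, Mrpl9, Mrpl10, Mrpl17, Mrpl19, Mrpl20, Mrpl21, Mrpl30, Mrpl34, Mrpl37, Mrpl38, Mrpl44, Mrpl46, Mrpl48, Mrpl53, Mrpl54, Mrps5, Mrps6, Mrps7, Mrps9, Mrps10, Mrps11, Mrps12, Mrps14, Mrps18b, Mrps21, Mrps23, Mrps27, Mrps34, Mrps35 and Mrps36. Their changes from day 10 to day 25 ran from -0.15 to 0.19 with a median of 0.09.

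Brightness went with the calls. The 16 members that fell by day 10 had a median mean brightness, the average log2 intensity of both channels, of 9.61, and none was dimmer than 8.91. The 59 members called in no comparison had a median of 8.13, close to 8.05 over all probes, and the 50 that rose to day 25 had 8.93. Among probes well above background on all 20 arrays, 20 of 92 members (21.7%, beside 14.0% of 12686 probes) fell by day 10 and 47 (51.1%, beside 25.7%) rose from day 10 to day 25. Its part in the calls was not tested.

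**Figure D3:**
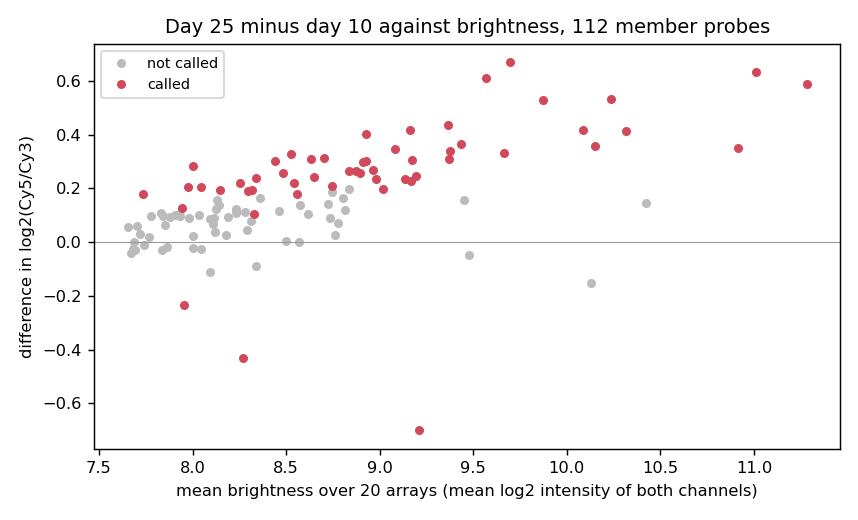
Change from day 10 to day 25 (y axis, difference in log2(Cy5/Cy3)) against mean brightness over the 20 arrays (x axis, mean log2 intensity of both channels) for the 112 member probes. The dimmest probes lie near 0; the 53 called probes, 50 of them above 0, start at a brightness of 7.74.

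In the following, the values of a day are given for mice 305, 310, 315 and 320 in this order, and errors of changes are standard errors from limma. Where a gene has several member probes, the values are those of 1 probe unless another is named.

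Mrpl33, a small protein of the large subunit with a bacterial counterpart, had the smallest p over the 5 days. Mrpl33 read 0.27, 0.48, 0.50 and 0.20 on day 0 and -0.62, -0.30, -0.29 and -0.32 on day 10. For Mrpl33, days 15, 20 and 25 gave -0.14, -0.21, -0.34 and -0.30, then 0.01, 0.09, -0.19 and -0.21, then 0.08, 0.40, 0.21 and 0.12. All values of days 10, 15 and 20 lay below all day 0 values, mouse 305 on day 10 was the lowest, and days 10 and 25 did not overlap. Mrpl33 fell by 0.75 ± 0.09 on day 10 (adjusted p = 6.97e-04), by 0.61 ± 0.09 on day 15 (adjusted p = 0.00116) and by 0.44 ± 0.09 on day 20 (adjusted p = 0.0211). It rose by 0.59 ± 0.09 from day 10 to day 25 (adjusted p = 3.22e-04), and day 25 differed from day 0 by -0.16 (adjusted p = 0.378). In the Cy5 channel alone the day 10 change was -1.04 and in the Cy3 reference -0.16. The call of day 20 ended without mouse 310 or 315 on day 0 or mouse 315 or 320 on day 20 (adjusted p up to 0.0954).

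Mrpl51 is a large subunit protein found only in mitochondrial ribosomes. Mrpl51 read 0.10, -0.17, 0.03 and -0.38 on day 0 and -0.46, -0.32, -0.38 and -0.38 on day 10. For Mrpl51, days 15, 20 and 25 gave -0.04, -0.22, -0.08 and -0.21, then 0.09, 0.06, -0.03 and -0.03, then 0.30, 0.14, 0.28 and 0.19. Mouse 320 was as low on day 0 as on day 10, so that those days overlapped, whereas all 4 values of day 25 lay above all of day 10. Mrpl51 rose by 0.61 ± 0.08 from day 10 to day 25 (adjusted p = 8.74e-05), and this call held in every setting tried and without any single array. It had fallen by 0.28 ± 0.08 on day 10 (adjusted p = 0.0297), a call that ended without mouse 305 or 315 on day 0 or mouse 305, 315 or 320 on day 10 (adjusted p up to 0.13). Mrpl49, another large subunit protein found only in mitochondria, also rose. Of the 41 calls of members described one by one, for which this was computed, the rises of Mrpl51 and Mrpl49 were the 2 that held in every setting and without any single array. Mrpl49 read 0.13, -0.04, 0.02 and -0.07 on day 0 and -0.10, 0.04, -0.17 and -0.15 on day 10. For Mrpl49, days 15, 20 and 25 gave -0.01, -0.04, -0.01 and -0.08, then 0.04, 0.01, 0.09 and 0.11, then 0.45, 0.02, 0.30 and 0.15. Day 25 and day 10 overlapped only through mouse 310, and the rise was 0.33 ± 0.07 (adjusted p = 0.00278).

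Mrpl23 lines the outlet of the exit tunnel. Mrpl23 read 0.19, 0.15, 0.30 and -0.14 on day 0 and -0.32, -0.39, -0.34 and -0.23 on day 10. For Mrpl23, days 15, 20 and 25 gave -0.11, -0.21, -0.17 and -0.36, then -0.04, -0.17, -0.20 and -0.07, then 0.11, 0.16, 0.02 and 0.09. All 4 values of day 10 lay below all of day 0 and of day 25. Mrpl23 fell by 0.44 ± 0.08 on day 10 (adjusted p = 0.00227) and by 0.33 ± 0.08 on day 15 (adjusted p = 0.013), and rose by 0.41 ± 0.08 from day 10 to day 25 (adjusted p = 7.91e-04). In the Cy5 channel alone, however, day 10 differed from day 0 by 0.06 and day 15 by 0.01, and the Cy3 reference, which is the same RNA on every array, was higher by 0.37 and 0.30. The rise from day 10 to day 25 was 0.44 in Cy5 alone and 0.06 in Cy3. The call of day 15 ended without mouse 305 on day 0 or mouse 320 on day 15 (adjusted p up to 0.0606).

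The same split between channels was seen in Mrpl14, a core protein at the interface of the subunits, and in Mrpl40, a protein found only in mitochondria. Mrpl14 read 0.31, -0.03, 0.19 and -0.10 on day 0 and -0.35, -0.21, -0.19 and -0.09 on day 10. For Mrpl14, days 15, 20 and 25 gave -0.05, -0.33, -0.18 and -0.35, then -0.16, -0.11, -0.27 and -0.28, then -0.01, 0.16, 0.32 and 0.11. Days 10 and 25 of Mrpl14 did not overlap, whereas days 0 and 10 overlapped slightly through mouse 320. Mrpl14 fell by 0.31 ± 0.09 on day 10 (adjusted p = 0.0382) and by 0.32 ± 0.09 on day 15 (adjusted p = 0.0439), and rose by 0.36 ± 0.09 to day 25 (adjusted p = 0.00703). The day 10 call ended without mouse 305 or 315 on day 0 or mouse 305 or 315 on day 10 (adjusted p up to 0.16). That of day 15 ended without any one of 13 arrays, namely mouse 305 or 315 on day 0, mouse 310 or 315 on day 10, mouse 310, 315 or 320 on day 15, mouse 305, 310, 315 or 320 on day 20 or mouse 310 or 320 on day 25 (adjusted p up to 0.194). Mrpl40 read 0.33, 0.21, 0.11 and 0.03 on day 0 and -0.07, 0.03, -0.08 and -0.09 on day 10. For Mrpl40, days 15, 20 and 25 gave -0.01, 0.06, -0.02 and -0.02, then 0.05, -0.12, 0.07 and 0.04, then 0.34, 0.10, 0.27 and 0.27. Days 0 and 10 did not overlap, although mouse 320 on day 0 stood only just above mouse 310 on day 10. Mrpl40 fell by 0.22 ± 0.06 on day 10 (adjusted p = 0.0328; up to 0.143 without mouse 305 or 310 on day 0 or mouse 305, 315 or 320 on day 10) and rose by 0.30 ± 0.06 to day 25 (adjusted p = 0.00206). Over the 3 member probes of Mrpl40 the change ran from -0.22 to 0.00 on day 10, with 1 called. To day 25 it ran from 0.12 to 0.30, with 2 called. On day 10 the Cy5 channel alone gave 0.03 for Mrpl14 and 0.18 for Mrpl40, and the Cy3 reference gave 0.23 and 0.34.

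Mrpl3 is a core protein near the catalytic centre, and Mrpl45 lies at the exit tunnel, where the ribosome meets the inner membrane. Mrpl3 read 0.50, 0.21, 0.36 and 0.09 on day 0 and -0.02, 0.17, -0.15 and 0.05 on day 10. For Mrpl3, days 15, 20 and 25 gave -0.04, -0.01, -0.06 and -0.12, then 0.24, 0.30, 0.28 and 0.33, then 0.41, 0.25, 0.37 and 0.34. Mrpl3 was lowest on day 15, where no value overlapped with day 0, and on day 20 it was back in the range of day 0. It fell by 0.28 ± 0.07 on day 10 (adjusted p = 0.0231) and by 0.35 ± 0.07 on day 15 (adjusted p = 0.00838), and rose by 0.33 ± 0.07 from day 10 to day 25 (adjusted p = 0.00303). The day 10 call ended without mouse 305 or 315 on day 0 or mouse 305 or 315 on day 10 (adjusted p up to 0.103). Over the 3 member probes of Mrpl3 the change ran from -0.28 to -0.07 on day 10 and from -0.35 to -0.02 on day 15. In each of these comparisons 1 probe was called. From day 10 to day 25 it ran from 0.07 to 0.33, with 2 called. Mrpl45 read 0.54, 0.14 and 0.20 on day 0 and -0.12, 0.00, -0.11 and 0.01 on day 10. For Mrpl45, days 15, 20 and 25 gave -0.03, -0.01, -0.03 and -0.08, then 0.16, 0.30, 0.20 and 0.34, then 0.33, 0.08, 0.26 and 0.31. Its day 0 values are those of mice 305, 310 and 320, because the spot of mouse 315 was left out as uneven. For Mrpl45 days 10 and 15 both lay apart from day 0, and day 20 was in the range of day 0. It fell by 0.35 ± 0.08 on day 10 (adjusted p = 0.0132; 0.0855 without mouse 305 on day 0) and by 0.33 ± 0.08 on day 15 (adjusted p = 0.0228; up to 0.165 without mouse 305 on day 0 or mouse 315 or 320 on day 15). From day 10 to day 25 it rose by 0.30 ± 0.08 (adjusted p = 0.00707). The other Mrpl45 probe changed by -0.01 on day 10, 0.00 on day 15 and 0.06 from day 10 to day 25, and was not called.

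Mrpl43 and Mrpl52 are large subunit proteins found only in mitochondria. Mrpl43 read 0.23, 0.18, 0.38 and -0.16 on day 0 and -0.19, -0.05, -0.19 and -0.19 on day 10. For Mrpl43, days 15, 20 and 25 gave -0.01, -0.04, -0.11 and -0.28, then 0.21, 0.28, 0.06 and 0.09, then 0.50, 0.39, 0.37 and 0.24. Mouse 320 was low on day 0, and day 25 lay above day 10 in every mouse. Mrpl43 rose by 0.53 ± 0.09 from day 10 to day 25 (adjusted p = 4.96e-04). It had fallen by 0.31 ± 0.09 on day 10 (adjusted p = 0.0355; up to 0.118 without mouse 305, 310 or 315 on day 0 or mouse 305, 315 or 320 on day 10). Mrpl52 read 0.27, 0.26, 0.38 and -0.13 on day 0 and -0.33, -0.07, -0.24 and -0.30 on day 10. For Mrpl52, days 15, 20 and 25 gave -0.09, -0.23, -0.12 and -0.43, then 0.06, 0.13, -0.14 and -0.13, then 0.43, 0.25, 0.24 and 0.25. The day 0 value of mouse 320 again lay apart from the other 3 and within the range of day 10. Mrpl52 fell by 0.43 ± 0.10 on day 10 (adjusted p = 0.0113) and by 0.41 ± 0.10 on day 15 (adjusted p = 0.0186; up to 0.085 without mouse 305, 310 or 315 on day 0 or mouse 320 on day 15). It rose by 0.53 ± 0.10 to day 25 (adjusted p = 9.91e-04).

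Mrpl28 and Mrpl18 have bacterial counterparts, the latter a protein that binds the small ribosomal RNA of the bacterial large subunit. Mrpl28 read 0.12, 0.01, 0.15 and -0.21 on day 0 and -0.44, -0.28, -0.41 and -0.34 on day 10. For Mrpl28, days 15, 20 and 25 gave -0.11, -0.24, -0.20 and -0.41, then -0.03, -0.14, -0.12 and -0.12, then -0.06, 0.15, 0.08 and 0.02. No value of day 10 overlapped with day 0 or with day 25. Mrpl28 fell by 0.39 ± 0.08 on day 10 (adjusted p = 0.00456), differed by -0.26 ± 0.08 on day 15 (adjusted p = 0.051) and rose by 0.42 ± 0.08 to day 25 (adjusted p = 6.99e-04). The other Mrpl28 probe changed by only -0.11 on day 10, -0.01 on day 15 and 0.02 from day 10 to day 25, and was not called. Mrpl18 read 0.35, 0.08, 0.14 and 0.06 on day 0 and -0.13, 0.02, -0.15 and -0.15 on day 10. For Mrpl18, days 15, 20 and 25 gave -0.03, -0.14, -0.04 and -0.08, then 0.08, -0.07, -0.07 and 0.08, then 0.27, 0.09, 0.21 and 0.23. Mouse 305 was highest on days 0 and 25, and mouse 310 was highest on day 10. Mrpl18 fell by 0.26 ± 0.06 on day 10 (adjusted p = 0.0158; up to 0.0686 without mouse 305 on day 0 or mouse 315 on day 10) and rose by 0.30 ± 0.06 to day 25 (adjusted p = 0.00212). Its fall by 0.23 ± 0.06 on day 15 (adjusted p = 0.0425) lost the call without any one of 12 arrays, namely mouse 305, 310 or 315 on day 0, mouse 305, 315 or 320 on day 10, mouse 305, 310, 315 or 320 on day 15 or mouse 315 or 320 on day 25 (adjusted p up to 0.187).

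**Figure D4:**
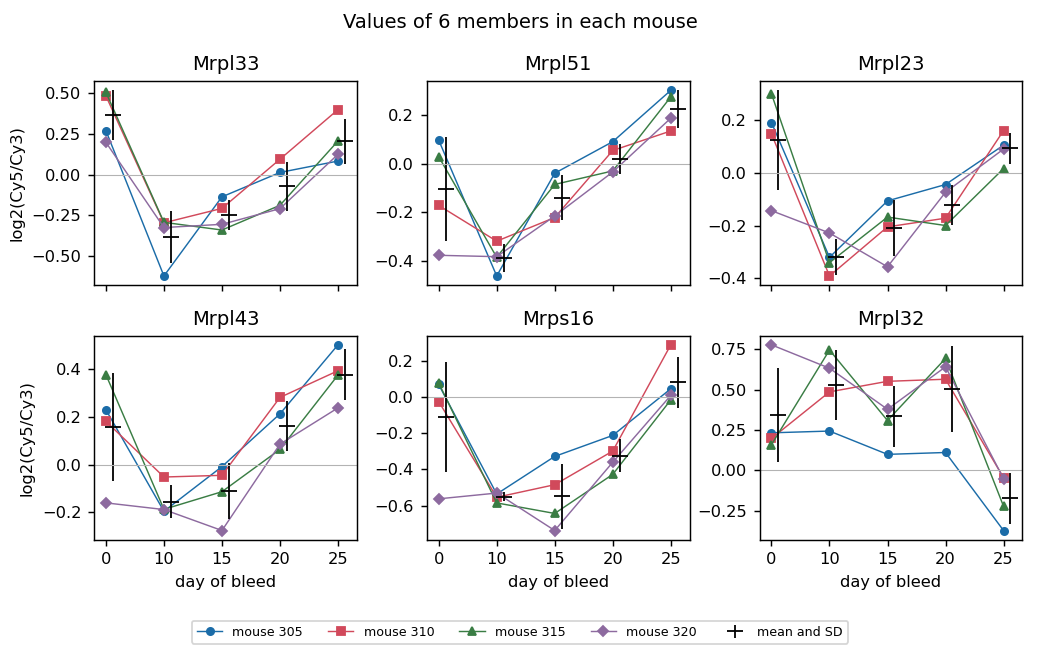
Values of 6 members in each mouse (coloured lines, log2(Cy5/Cy3)) by day of bleed, with mean and SD in black. Mrpl33, Mrpl51, Mrpl23, Mrpl43 and Mrps16 are lower on day 10 than on day 25 in all 4 mice, and Mrpl32 is higher on day 10 than on day 25 in all 4.

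Mrps16, a small subunit protein with a bacterial counterpart, had the smallest p over the 5 days among the small subunit members. Mrps16 read 0.07, -0.03, 0.08 and -0.56 on day 0 and -0.54, -0.55, -0.58 and -0.53 on day 10. For Mrps16, days 15, 20 and 25 gave -0.33, -0.48, -0.64 and -0.74, then -0.21, -0.30, -0.43 and -0.36, then 0.05, 0.29, -0.02 and 0.01. On day 0 mouse 320 stood far below the other 3 mice and at the level of day 10, whereas the 4 values of day 10 lay close together and below all of day 25. Mrps16 rose by 0.63 ± 0.12 from day 10 to day 25 (adjusted p = 7.61e-04). It had fallen by 0.44 ± 0.12 on day 10 (adjusted p = 0.0212; up to 0.0901 without mouse 305, 310 or 315 on day 0 or mouse 315 on day 10). Its fall on day 15 was 0.44 ± 0.12 (adjusted p = 0.0299; up to 0.127 without mouse 305, 310 or 315 on day 0 or mouse 310, 315 or 320 on day 15).

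Mrps17, which binds the small subunit RNA in bacteria, had the largest rise from day 10 to day 25 of the 112 members. Mrps17 read -0.33, -0.57, -0.27 and -0.89 on day 0 and -1.19, -0.86, -0.60 and -1.63 on day 10. For Mrps17, days 15, 20 and 25 gave -0.33, -0.57, -0.19 and -0.65, then -0.52, -0.58, -0.84 and -0.48, then -0.45, -0.16, -0.68 and -0.31. Mouse 320 was lowest on day 10, and day 25 overlapped with day 10 through mouse 315. This probe rose by 0.67 ± 0.18 to day 25 (adjusted p = 0.0103), and day 10 differed from day 0 by -0.55 ± 0.18 (adjusted p = 0.0571). The day 10 fall of Mrps17 was called on its other probe, by 0.28 ± 0.08 (adjusted p = 0.0408), which rose by 0.42 ± 0.08 to day 25 (adjusted p = 0.00151). In the first probe the Cy3 reference was higher than on day 0 by 0.45 on day 10, 0.88 on day 15, 0.72 on day 20 and 0.80 on day 25. In Cy5 alone the change from day 10 to day 25 was 0.98. Mrps22 is a small subunit protein found only in mitochondria. Mrps22 read 0.10, 0.10, 0.04 and 0.03 on day 0 and 0.04, 0.03, -0.09 and -0.04 on day 10. For Mrps22, days 15, 20 and 25 gave 0.01, 0.02, 0.00 and 0.00, then 0.04, 0.25, 0.27 and 0.26, then 0.16, 0.02, 0.32 and 0.21. Its day 20 values were high in 3 mice and low in mouse 305, and days 10 and 25 overlapped through mouse 310. Mrps22 rose by 0.19 ± 0.06 to day 25 (adjusted p = 0.0178; up to 0.0683 without mouse 315 on day 10 or mouse 315 on day 25).

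2 genes went the other way from day 10 to day 25. Mrpl32 is a large subunit protein that a protease of the inner membrane trims before it is built into the ribosome. Mrpl32 read 0.23, 0.20, 0.16 and 0.78 on day 0 and 0.24, 0.49, 0.75 and 0.63 on day 10. For Mrpl32, days 15, 20 and 25 gave 0.10, 0.55, 0.31 and 0.38, then 0.11, 0.56, 0.69 and 0.64, then -0.37, -0.05, -0.22 and -0.05. All 4 values of day 25 were below 0 and below every value of day 10, and mouse 320 was far above the others on day 0. Mrpl32 fell by 0.70 ± 0.15 from day 10 to day 25 (adjusted p = 0.0022), and day 25 differed from day 0 by -0.51 ± 0.15 (adjusted p = 0.115). In Cy5 alone the fall was -0.56, against 0.08 in Cy3.

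Mrps2, a small subunit protein with a bacterial counterpart, fell on 2 of its 3 member probes. Mrps2 read -0.07, 0.02, 0.01 and 0.15 on day 0 and 0.16, 0.07, 0.13 and 0.50 on day 10. For Mrps2, days 15, 20 and 25 gave 0.04, 0.27, 0.07 and 0.21, then 0.03, 0.22, 0.46 and 0.47, then -0.43, -0.02, -0.35 and -0.07. This probe, the brightest of the 3, fell by 0.43 ± 0.11 from day 10 to day 25 (adjusted p = 0.00801), with no overlap between the days. The other probe that fell read 0.06, -0.02, 0.00 and 0.00 on day 0, 0.02, 0.03, 0.13 and 0.24 on day 10 and 0.02, 0.08, 0.02 and 0.07 on day 15. It read 0.00, 0.22, 0.03 and 0.20 on day 20 and -0.14, -0.01, -0.18 and -0.18 on day 25. It fell by 0.23 ± 0.06 (adjusted p = 0.00622), also with no overlap. The third probe, A_52_P367565, went the other way without being called, with a change of 0.10 ± 0.04 (adjusted p = 0.102). In Cy5 alone the changes of the 2 probes that fell were -0.04 and -0.09, and neither was called, while Cy3 was higher on day 25 by 0.27 and 0.08. With each array centred on its median in place of the brightness-dependent correction, Mrpl32 and the 2 Mrps2 probes that fell were higher on day 25 than on day 10, by 0.31, 0.16 and 0.10. The median of all probes moved by 0.39, so that relative to it these 3 probes stayed lower. With each array centred on the median of the kept probes, however, Mrpl32 and the brightest Mrps2 probe were no longer called.

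The 3 paralogs of the bacterial protein S18 sit at different places: Mrps18b and Mrps18c in the small subunit and Mrps18a in the large one. Mrps18a read 0.09, -0.01, 0.02 and -0.06 on day 0 and -0.05, -0.01, -0.10 and -0.20 on day 10. For Mrps18a, days 15, 20 and 25 gave -0.01, -0.09, -0.01 and 0.00, then 0.01, 0.02, 0.01 and -0.23, then 0.24, 0.02, 0.08 and 0.08. All day 25 values lay above all of day 10, and mouse 320 was low on days 10 and 20. Mrps18a rose by 0.19 ± 0.06 from day 10 to day 25 (adjusted p = 0.0225; up to 0.0844 without mouse 315 or 320 on day 10 or mouse 305 on day 25). The first Mrps18c probe, A_51_P108484, read 0.21, 0.00, 0.07 and -0.18 on day 0, -0.13, 0.00, -0.19 and -0.03 on day 10 and -0.01, -0.07, -0.04 and -0.08 on day 15. It went on to -0.05, -0.05, -0.27 and -0.29 on day 20 and 0.17, 0.03, 0.05 and 0.24 on day 25. All its day 25 values lay above those of day 10, and it rose by 0.21 ± 0.08 (adjusted p = 0.046), a call lost without any one of 12 arrays, namely mouse 310 or 315 on day 0, mouse 305, 315 or 320 on day 10, mouse 305, 310, 315 or 320 on day 15 or mouse 305, 315 or 320 on day 25 (adjusted p up to 0.132). The second Mrps18c probe, A_51_P108478, read 0.42, 0.16, 0.16 and -0.02 on day 0, -0.19, 0.03, -0.13 and 0.11 on day 10 and 0.00, 0.13, 0.02 and 0.09 on day 15. Its later values were -0.06, -0.09, -0.04 and -0.01 on day 20 and 0.07, 0.04, 0.25 and 0.23 on day 25. It changed by 0.20 ± 0.08 from day 10 to day 25, which missed the threshold (adjusted p = 0.0684), close to the size seen in the first probe. Mrps18b was among the dimmest members, well above background on 7 arrays. Mrps18b read 0.08, 0.07, 0.01 and 0.04 on day 0 and 0.02, 0.02, 0.03 and 0.25 on day 10. For Mrps18b, days 15, 20 and 25 gave 0.00, -0.05, -0.01 and -0.01, then 0.02, 0.07, 0.25 and 0.15, then -0.06, 0.01, 0.17 and 0.05. Its change from day 10 to day 25 was -0.04 ± 0.06 (adjusted p = 0.643).

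4 further members are given because they had one of the 3 highest or lowest changes of a comparison, without being called in it. Mrpl2 is a core protein near the catalytic centre. Mrpl2 read 0.08, -0.06, 0.03 and 0.06 on day 0 and 0.08, 0.02, 0.08 and 0.37 on day 10. For Mrpl2, days 15, 20 and 25 gave 0.02, 0.07, 0.02 and 0.03, then 0.05, 0.10, 0.09 and 0.13, then 0.19, 0.00, -0.06 and 0.06. On day 10 mouse 320 was high and the other 3 mice lay near their day 0 values. The change on day 10 was 0.11 ± 0.06 (adjusted p = 0.3). Mrps34 is a small subunit protein found only in mitochondria. Mrps34 read 0.35, 0.06, 0.41 and -0.02 on day 0 and 0.04, 0.13, 0.20 and 0.22 on day 10. For Mrps34, days 15, 20 and 25 gave 0.00, -0.07, -0.05 and -0.15, then -0.03, 0.00, 0.16 and 0.08, then -0.15, 0.08, -0.05 and 0.11. Its day 15 values were at or below 0 and lay below all of day 10. Day 25, for which it was chosen, differed from day 0 by -0.20 ± 0.08 (adjusted p = 0.228).

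Mrps35 is also a protein of the small subunit. Mrps35 read 0.05, -0.32, 0.00 and -0.06 on day 0 and 0.01, 0.00, -0.02 and 0.04 on day 10. For Mrps35, days 15, 20 and 25 gave 0.00, 0.10, 0.00 and 0.00, then 0.02, -0.03, 0.00 and -0.01, then 0.21, 0.00, 0.08 and 0.13. Mouse 310 was low on day 0, and no 2 days were fully apart. It was chosen for its change on day 15, 0.11 ± 0.06 (adjusted p = 0.509). Mrps36 is now assigned to the alpha-ketoglutarate dehydrogenase complex and no longer to the ribosome. Mrps36 read -0.05, -0.12, 0.03 and -0.08 on day 0 and -0.16, 0.03, -0.06 and -0.08 on day 10. For Mrps36, days 15, 20 and 25 gave 0.02, 0.13, 0.04 and 0.11, then -0.07, -0.20, -0.22 and -0.01, then -0.16, -0.04, -0.12 and 0.14. All day 15 values lay above all of day 20, and every other pair of days overlapped. The change on day 15 was 0.13 ± 0.06 (adjusted p = 0.367).

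Where a gene had several member probes they did not always move alike. This held for 27 genes, and in none of them were probes called in opposite directions in any of the 5 comparisons. From day 10 to day 25, 18 of the 27 genes had at least one called probe, but in only 5 were all probes called, and in 6 the probes differed in sign. On day 10 against day 0, 8 had a called probe, none had all called, and the signs differed in 11. With 1 probe per gene, the brightest, 38 of 75 genes rose from day 10 to day 25 and 2 fell. No share of all genes was set beside this count.

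Genes that work with the mitochondrial ribosome were described from lists of such genes, with the brightest probe of each gene counted. Of 7 ribosomal proteins with other names, 5 rose from day 10 to day 25 and none fell: Dap3, a small subunit protein also known as a death-associated protein (0.37, adjusted p = 0.00481), Chchd1 (0.44, adjusted p = 0.00759), Aurkaip1 (0.30, adjusted p = 0.0143), Ptcd3 (0.39, adjusted p = 0.00379) and Gadd45gip1 (0.26, adjusted p = 0.0159). Their list had a median change of 0.30, beside 0.03 over all probes, and Dap3 had also fallen on days 10 (-0.33, adjusted p = 0.023) and 15 (-0.37, adjusted p = 0.0187). Averaged over the 7 genes, the arrays ran from -0.29 to -0.10 (day 10) and from 0.01 to 0.14 (day 25).

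Among 14 mitochondrial translation factors 4 rose and none fell from day 10 to day 25, with a list median of 0.02. For this and the following lists the share of all probes was 17.7% higher and 13.7% lower, with a median of 0.03, so that the median of the translation factors was near that of the array. The 4 were Tufm, the elongation factor that brings transfer RNA (0.40, adjusted p = 8.93e-04), the RNA-binding protein Slirp (0.22, adjusted p = 0.00849), the initiation factor Mtif2 (0.22, adjusted p = 0.00416) and Guf1 (0.21, adjusted p = 0.0276). Of 21 genes of ribosome assembly and RNA modification 6 rose and 1 fell, with a median of 0.10. Malsu1, an assembly factor of the large subunit, rose by 0.39 (adjusted p = 7.95e-04), the RNA helicase Dhx30 by 0.43 (adjusted p = 0.00137) and Ngrn by 0.38 (adjusted p = 8.77e-04). The brighter probe of Nsun4, an RNA methyltransferase, fell (-1.03, adjusted p = 9.66e-04), whereas its dimmer probe rose (0.13, adjusted p = 0.031). Mrm3, another methyltransferase, was called only on day 20 (0.22, adjusted p = 0.015).

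The 17 mitochondrial aminoacyl-tRNA synthetases had no common direction, with 2 higher, 3 lower and a median of 0.05 from day 10 to day 25. Lars2 fell by 1.72 (adjusted p = 1.27e-04) after a rise of 1.08 on day 10 (adjusted p = 0.00903). The brightest of the 4 probes of Vars2 fell by 0.26 (adjusted p = 0.0154) and Fars2 by 0.29 (adjusted p = 0.0202). Cars2 rose by 0.15 (adjusted p = 0.0214) and Hars2 by 0.24 (adjusted p = 0.0404). Of 9 genes that copy and keep mitochondrial DNA, Ssbp1, the single-strand binding protein, rose by 0.65 (adjusted p = 5.22e-05) and Tefm by 0.19 (adjusted p = 0.0352). Of the 3 probes of Tfam, which packs mitochondrial DNA, 2 were called in opposite directions (-1.61, adjusted p = 9.03e-05, and 0.38, adjusted p = 0.00619), and the third was not called (-0.02, adjusted p = 0.731). Of 20 genes of protein import, 10 rose and 1 fell, with a median of 0.20. The receptor Tomm20 rose by 0.58 (adjusted p = 1.73e-04), the chaperones Hspd1 by 0.42 (adjusted p = 0.0024) and Hspe1 by 0.43 (adjusted p = 0.0022), and the processing protease subunit Pmpcb by 0.32 (adjusted p = 0.00336). The brightest of the 3 probes of the channel subunit Timm17b fell (-0.60, adjusted p = 0.00136).

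Markers of blood cell types moved in the same comparisons. All 9 erythroid genes measured, among them Hbb-b1 and Slc4a1, fell from day 10 to day 25, with a median of -1.18. Averaged over the list, the arrays ran from 0.76 to 0.89 (day 10), from -0.51 to -0.08 (day 25) and from -0.12 to 0.76 (day 0). Of the 9 mature neutrophil genes 8 fell by day 10, and the arrays lay between 0.55 and 1.17 on day 0, from -0.38 to 0.05 on day 10 and from 0.03 to 0.53 on day 25. From day 10 to day 25, 2 of 9 neutrophil, 2 of 6 T cell, 2 of 6 B cell and 1 of 6 monocyte genes rose and none of these fell, beside 17.7% of all probes higher and 13.7% lower. Of these, 2 of 9 and 1 of 6 are near the share of the array, and the lists are short. Of 5 genes of dividing cells 3 fell, and of 6 platelet genes 2 fell. Of 5 natural killer cell genes none was called, nor were the 2 of 5 hepatoma genes that passed the filter. The part of the cell types in the members' changes was not tested.

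**Figure D5:**
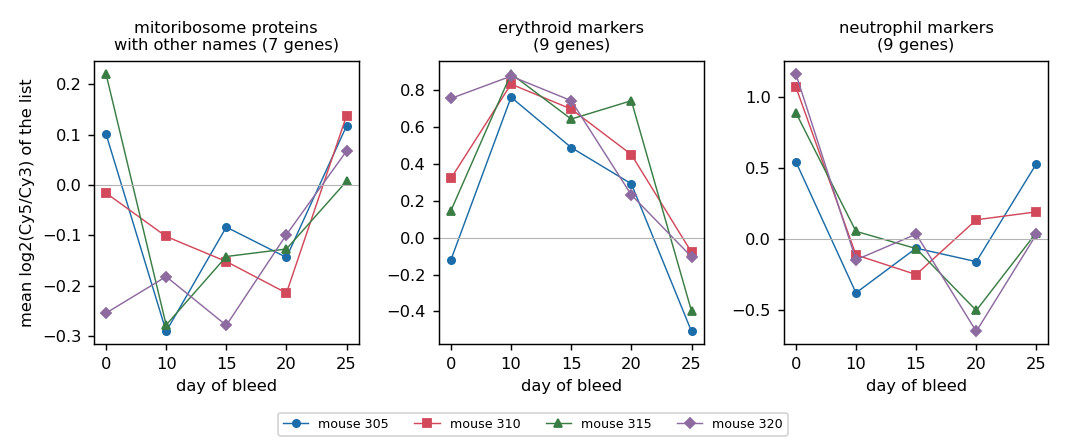
Mean log2(Cy5/Cy3) of 3 gene lists on each array (coloured lines, 1 per mouse) by day of bleed; the y axes differ. For the ribosomal proteins with other names all 4 mice lie below 0 on days 10 to 20 and above 0 on day 25; the erythroid means are lower on day 25 than on day 10 and the neutrophil means highest on day 0 in all 4 mice.

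The quality of the arrays also differed between days. The median background-subtracted Cy3 signal ran from 79.6 to 110 on day 0 and from 7.82 to 26.4 later, and 46.6% to 51.4% of probes were well above background on day 0, 38.1% to 45.8% on days 10 to 20 and 47.6% to 52.2% on day 25. The median log2 ratio of the spike-in control spots was taken on each array after normalization within arrays. Averaged over the arrays of a day, it was -0.59 on day 0, -0.19 on day 10, -0.30 on day 15, -0.65 on day 20 and -1.22 on day 25. Single arrays ran from -0.96 to -0.30 on day 0 and from -1.67 to -0.46 on day 25. The Cy3 channel holds the same RNA on every array and should show no difference, yet taken alone it called 51 of the 112 members on day 10 against day 0 (45.5%, beside 39.6% of all probes), 29 higher and 22 lower, and 19 from day 10 to day 25 (beside 20.1% of all probes), 8 higher and 11 lower. The members' median in Cy3 alone moved by 0.00 and 0.01 in these comparisons. In Cy5 alone 30 members fell and 3 rose by day 10 (26.8% and 2.68%, beside 16.1% and 7.95% of all probes), and 48 rose and 2 fell from day 10 to day 25 (42.9% and 1.79%, beside 19.5% and 10.0%).

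With the arrays also scaled to a common spread after loess, none of the 12 calls of day 10 and 5 of the 20 calls from day 10 to day 25 held among the members described one by one. Under this scaling 25 of the 112 members rose from day 10 to day 25 and 3 fell, without a share of all probes set beside these counts.

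Single arrays decided how many members were called. The 16 calls of day 10 became 4 without mouse 305 on day 0, 7 without mouse 315 on day 0, 7 without mouse 305 on day 10, 6 without mouse 315 on day 10 and 9 without mouse 320 on day 10. The 8 calls of day 15 became 2 without mouse 305 on day 0, 5 without mouse 310, 4 without mouse 315 and 14 without mouse 320 on day 0, and 5, 4 and 2 without mouse 310, 315 or 320 on day 15. The single call of day 20 was lost without mouse 310 or 315 on day 0 or mouse 315 or 320 on day 20, and became 7 without mouse 320 on day 0 and 11 without mouse 305 on day 20. On day 25, 9 members were called without mouse 310 and 1 without mouse 305 on day 0. The 53 calls between days 10 and 25 stayed between 38 and 66 whichever array was left out. The 33 calls of the F test became 22 without mouse 305 on day 10, 21 without mouse 315 on day 25 and 20 without mouse 305 on day 25. With the mouse as a replicate block, 2 members were called on day 20, both lower, and 2 on day 25, 1 higher and 1 lower. No share of all probes was set beside the counts of these fits, so that they show only how the calls depended on the fit.

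As a description of likeness, the probes outside the members whose values followed the mean of the members most closely over the 20 arrays were an unnamed transcript listed as NAP060490-1 (Pearson r = 0.978), Glcci1 (0.960), Crsp8, a subunit of the Mediator complex (0.958), Cops4, a subunit of the COP9 signalosome (0.957), and Ing4, a protein that binds modified histones (0.956). The members' own r to their mean ran from -0.72 to 0.96 with a median of 0.59. The arrays share days and slides, so that these values carry no test.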

How the data were processed

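The deposited scanner files hold intensity values for 45018 spots per array and a log10 ratio of Cy5 over Cy3, per the file headers; the software was Agilent Feature Extraction 9.1.3.1, per the submitters' processing notes. Per the labels' protocols, blood was kept in RNAlater and RNA was extracted with a RiboPure-Blood kit and labelled with a QuickAmp kit. The deposited value table gave no further values: all 900360 of its values equalled the scanner's log10 ratio within 1e-06.

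The mean signals were background-corrected (normexp, offset 50) and loess-normalized within arrays with limma 3.58.1 in R 4.3.3. Control spots had weight 0, uneven spots were left out and spots of a probe were averaged. The fit took probes that the scanner marked in Cy5 as well above background on 4 or more arrays, with 3 or more values on every day. 1 model with 5 day means was fitted over 20957 probes, and the days share 1 estimate of the spread. The precision is limited by 4 arrays a day. The bleeds are paired by animal. After removal of the day means, 40 pairs of arrays from 1 animal had a mean r of 0.0846, and 120 pairs from different animals one of -0.0287.

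The members and the gene lists were chosen with earlier results of these data known. Values in every sample are given for the members with the 12 smallest F test p-values, the 3 highest and 3 lowest changes of each comparison and Mrps18a, Mrps18b and Mrps18c. Of other lists at most 5 called genes are named, by F test p. Where a gene has several promoter windows, the most upstream was used. Alternatives were another normalization, background correction, starting value, channel or filter, 1 probe per gene, a block for the mouse, and leaving out each array.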

Additional observations from a re-analysis of the deposited data

Results flagged for a closer look

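Dixon's test was run on 134 groups of 4 arrays of a day, from the named members and from the median of all members. In 12 groups, all of named members, 1 value lay far from the other 3 of its day. Chance alone flags about 5% of such groups. On day 0, mouse 320 was high for Mrpl32 (0.78, the others from 0.16 to 0.23) and low for Mrps16 (-0.56, the others from -0.03 to 0.08). On day 10, mouse 305 was low for Mrpl33 (-0.62, the others from -0.32 to -0.29), mouse 310 was high for Mrpl18 (0.024, the others from -0.15 to -0.13) and for Mrpl43 (-0.052, the others all at -0.19), and mouse 320 was high for Mrps18b (0.25, the others from 0.02 to 0.03). On day 15, mouse 310 was high for Mrpl40 (0.060, the others from -0.02 to -0.01) and Mrps35 (0.10, the others at 0.00) and low for Mrps18a (-0.088, the others from -0.01 to 0.00). On day 20, mouse 305 was low for Mrps22 (0.036, the others from 0.25 to 0.27) and mouse 320 was low for Mrps18a (-0.23, the others from 0.01 to 0.02). On day 25, mouse 305 was high for Mrpl52 (0.43, the others from 0.24 to 0.25).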

How the results depend on the processing

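Against the main counts of 16, 8, 1 and 0 members called on days 10, 15, 20 and 25, 53 from day 10 to day 25 and 33 by the F test, these settings moved a count by over 1.5 times. With each array centred on its median in place of loess, 86 were called on day 10, 0 on day 15, 0 on day 20 and 93 from day 10 to day 25, while the median of all probes moved by -0.39, -0.29, -0.22 and 0.39. Centred on the median of the kept probes, an alternative chosen after seeing the data, 70 were called on day 10, 28 on day 15, 0 on day 20 and 55 by the F test. With scaling between arrays after loess, 36 were called on day 15 (4 higher, 32 lower), 3 on day 20 (1 higher), 2 on day 25, 28 from day 10 to day 25 and 52 by the F test; scaling ended the calls of all 12 named members on day 10 and of 15 of the 20 named ones from day 10 to day 25. The scanner's log ratio gave 57 on day 15, 5 on day 20, 1 on day 25 and 74 by the F test, and on day 10 3 of its 24 calls were higher. It ended the calls of 8 of the 12 named members on day 10 and of 1 of the 20 from day 10 to day 25. Cy5 alone gave 33 on day 10, 59 on day 15 (6 higher, 53 lower), 23 on day 20 (7 higher, 16 lower), 13 on day 25 and 81 by the F test. Cy5 alone ended or reversed the calls of 6 of the 12 named members on day 10 and of 5 of the 20 from day 10 to day 25. Without background correction the counts were 47, 46, 12 and 14 on days 10 to 25 (6 higher on day 10 and 5 on day 15) and 79 by the F test. Without the brightness filter, when more probes are tested, they were 9 on day 10 and 5 on day 15. The replicate block of the mouse gave 2 on day 20 and 2 on day 25, and changed no other count by over 1.5 times. Leaving out 1 array gave 4 to 23 on day 10, 2 to 14 on day 15, 0 to 11 on day 20, 0 to 9 on day 25, 38 to 66 from day 10 to day 25 and 20 to 46 by the F test. Shares of all probes were given above only for Cy5 alone, on day 10 and from day 10 to day 25. The other counts describe the settings and not the members. The causes were not tested.

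In Cy5 alone the sign turned for Mrpl14 on day 10 (0.026), Mrpl23 on days 10, 15 and 25 (0.058, 0.0051 and 0.50), Mrpl32 on day 15 (0.58), Mrpl40 on day 10 (0.18), Mrps17 on day 20 (0.81) and Mrps35 on days 10 and 15 (-0.15 and -0.13). It turned in the scanner's ratio for Mrpl32 on day 15 (0.60) and with median centring from day 10 to day 25 for Mrpl32 (0.31) and the 2 probes of Mrps2 that fell (0.10 and 0.16). Of 41 calls of named members, 2 held in every setting and without any array, the rises of Mrpl49 and Mrpl51, and 18 ended without some array. Slide could not be fitted as a block, since each slide holds 1 day. Dim probes limit the rest: 11 members had at least 1 day without an array well above background.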

Other observations

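Among the probes outside the members, those that ran most opposite to the members' mean over the 20 arrays were 2810453I06Rik (Pearson r = -0.949), 2 probes of the ubiquitin ligase Mkrn1 (-0.938 and -0.933), Fech, the last enzyme of heme synthesis (-0.936), and Rsad2, an interferon-induced gene (-0.935). They were chosen after their values were seen, and the arrays share days and slides.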
